A study of Rattus norvegicus with 8 samples.

Results

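The chemokine ligand genes of the rat were compared between vein grafts and control jugular veins. They were taken as every row of the gene count table named Ccl, Cxcl, Xcl or Cx3cl with a number, plus Pf4 and Ppbp, which gave 36 of 37209 rows. The 4 grafts and 4 controls came from Sprague Dawley rats, an outbred laboratory strain without a stated genetic modification, with age and sex not given in the sources used here. A graft was a vein placed between the cuffed ends of the divided left common carotid artery and removed 1 week after the operation, and a control was the jugular vein of the other side of the operated animal. All animals had thus been operated, and no vein from an unoperated rat was analysed here.

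Chemokines are small secreted proteins that direct the migration of leukocytes through G protein-coupled receptors. The CC ligands, many of them made by macrophages, stromal cells and endothelium, mostly draw monocytes and lymphocytes. CXC ligands of the Cxcr2 receptor draw neutrophils, those of Cxcr3 draw activated T cells, and homeostatic ligands such as Cxcl12 and Ccl21 set the resting traffic of leukocytes through tissue. In injured vessels, chemokines from the wall and from infiltrating cells are known to recruit monocytes and other leukocytes.

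Control libraries held 5981520 to 14267490 counts and graft libraries 10533451 to 16061189. At these depths 3 counts in a library equal 0.182 to 0.56 CPM, the unit used for levels here, which is the count scaled to library size. The protocol text names the prefrontal cortex as the source of the RNA, while the titles and tissue labels name veins. Summed over 6 neuron markers the level was 1.03 to 3.88 CPM in the 8 libraries and Neurod6 had no counts, whereas 6 smooth muscle markers summed to 10400 to 16800 CPM in the controls and 1160 to 2170 CPM in the grafts. Over 10 macrophage markers the sum was 265 to 442 CPM in the controls and 1110 to 1760 CPM in the grafts, and 8 of the 10 rose. In whole tissue, a change in the number of cells of a type and a change in the RNA made per cell cannot be told apart. Control 1 stood apart in blood transcripts, with 3390 CPM over 3 red cell markers against 270 to 569 CPM in the other controls. Graft 2 had the highest sum over 8 neutrophil markers, though not the highest level of each of them. Fitted values that moved by over 1.5-fold when either library was left out are given with and without it.

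Among the ligands that passed a low-count filter, monocyte-attracting ones made up most of the rises. Of the 36 ligand genes, 23 passed the low-count filter, and of these 12 rose, 2 fell and 9 were not past the threshold (edgeR quasi-likelihood test, Benjamini-Hochberg adjusted p under 0.05 over all genes tested). Among all 15464 genes tested, 42.3% were called, 21.0% as higher and 21.3% as lower in the grafts. The groups did not overlap for 12 ligands with higher and 2 with lower levels in the grafts, against 20.8% and 19.8% of all genes tested (40.6% in either direction). The filter bears on these counts: 9 of the 23 passed it through the grafts without passing in all 4 controls, and 1, Ccl27, through the controls. With no such filter 18 ligands were called higher, and none of those added was of the monocyte class. By class, 8 of 9 tested monocyte ligands rose, 1 of 2 neutrophil ligands, 1 of 3 lymphocyte ligands and 2 of 6 homeostatic ligands, while both ligands that fell were homeostatic. Of the tested monocyte ligands, 5 of the 9 passed the filter through the grafts without passing in all 4 controls, and of the homeostatic ligands none did, so the counts by class are a description and not a comparison of classes.

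**Figure D1:**
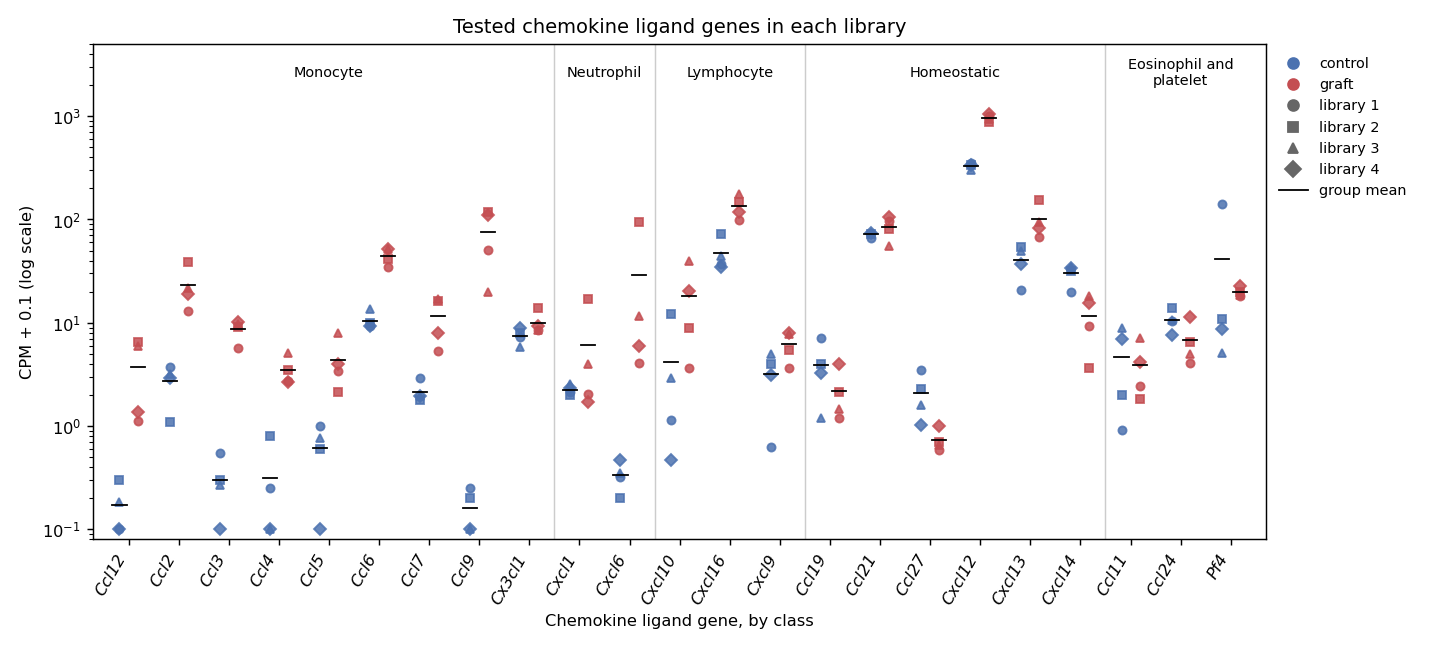
CPM plus 0.1 on a log scale for the 23 tested ligand genes, grouped by class. Each point is 1 library, blue for the 4 controls and red for the 4 grafts, shapes give the library number within a group and do not pair grafts with controls, and black bars are group means. The 8 monocyte ligands that rose show no overlap of the groups, Cxcl6 and Cxcl1 have 1 high graft, and Pf4 has 1 high control.

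Ccl2, Ccl7 and Ccl12, which in mice signal to monocytes through Ccr2, were all higher in the grafts. Ccl2 measured 3.67, 0.996, 3.1 and 2.8 CPM in controls 1 to 4 against 12.9, 38.5, 21.8 and 18.7 CPM in grafts 1 to 4. Every graft lay above every control, and graft 2 was the highest. The means were 2.64 ± 1.15 and 23 ± 11 CPM (SD, n = 4 each), for a log2 difference of 3.11 ± 0.44 (SE; edgeR adjusted p = 0.000513). Ccl7 measured 2.85, 1.69, 1.84 and 1.87 CPM in the controls against 5.22, 16.1, 17 and 7.9 CPM in the grafts, for a log2 difference of 2.46 ± 0.41 (edgeR adjusted p = 0.00132). Grafts 2 and 3 carried the highest Ccl7 levels, and the groups did not overlap. Ccl12 had 3 counts in all controls together and 1.03, 6.38, 5.92 and 1.28 CPM in grafts 1 to 4. The ratio of its summed counts was 45.9 (95% exact binomial counting interval 15.5 to 225; edgeR adjusted p = 0.00209). The order of the grafts for Ccl12 was that of Ccl7 in that grafts 2 and 3 were above grafts 1 and 4. Ccr2 itself is not analysed here.

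Ccl3, Ccl4 and Ccl5, inflammatory ligands that macrophages and cytotoxic lymphocytes make, were close to the detection limit in controls. Ccl3 measured 0.449, 0.199, 0.167 and 0 CPM in controls 1 to 4 against 5.58, 9.01, 9.68 and 10.1 CPM in grafts 1 to 4, for a log2 difference of 5.12 ± 0.48 (SE; edgeR adjusted p = 5.59e-05). Its level in grafts 2, 3 and 4 was nearly the same, with graft 1 lower. Ccl4 measured 0.15, 0.697, 0 and 0 CPM in the controls against 2.61, 3.38, 4.96 and 2.57 CPM in the grafts, for a log2 difference of 3.86 ± 0.76 (edgeR adjusted p = 0.003). The 7 counts of Ccl4 in control 2 weighed on this value, which was 5.53 without control 2, and that of Ccl3 was 5.8 without control 1. Ccl5 measured 0.899, 0.498, 0.669 and 0 CPM in the controls against 3.28, 2.03, 7.92 and 3.92 CPM in the grafts, for a log2 difference of 2.88 ± 0.62 (edgeR adjusted p = 0.00496). Ccl4 and Ccl5 were both highest in graft 3, which also had the highest sum over 8 T and NK cell markers. That sum was 116 CPM, against 49.2 to 66 CPM in the other grafts and 4.48 to 16.3 CPM in the controls. The other grafts did not follow this order. Graft 2 had a sum of 66 CPM and the lowest Ccl5 of the grafts, and graft 4 had 65.4 CPM and the lowest Ccl4. All 8 of those markers rose, and their part in the Ccl4 and Ccl5 levels was not tested.

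Ccl6 and Ccl9 are rodent chemokines of myeloid cells that signal through Ccr1 in mice. Ccl6 was the more evenly raised, at 9.29, 9.86, 13.4 and 9.15 CPM in controls 1 to 4 against 34.7, 41.2, 51.7 and 51.3 CPM in grafts 1 to 4, for a log2 difference of 2.1 ± 0.19 (SE; edgeR adjusted p = 5.1e-05). Ccl9 went from 3 counts in all controls together to 51, 119, 19.8 and 110 CPM in grafts 1 to 4. The ratio of summed counts was 1030 (95% counting interval 352 to 5000; edgeR adjusted p = 4.71e-05). Among the grafts, graft 3 held the least Ccl9 and the most Ccl6. Their genes are direct neighbours among protein-coding genes of RefSeq's GRCr8 annotation, in the order Ccl5, Ccl9, Ccl6, Ccl3 and Ccl4. All 5 genes of that run rose. Another run of CC genes, Ccl2, Ccl7, Ccl11, Ccl12 and Ccl1, was mixed, since Ccl11 was not past the threshold and Ccl1 was not tested. Reads of such related copies may have been split or dropped by the authors' counting, with settings not given in the sources used here.

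Cx3cl1, or fractalkine, is anchored in the membrane of endothelial and other cells and holds monocytes that carry Cx3cr1. It measured 7.19, 7.87, 5.69 and 8.77 CPM in controls 1 to 4 against 8.5, 13.7, 8.32 and 9.24 CPM in grafts 1 to 4. The groups overlapped, and the log2 fold change of 0.44 ± 0.23 was not past the threshold (SE; edgeR adjusted p = 0.153). With library totals alone it was 0.66 and past it (edgeR adjusted p = 0.0355). Its receptor Cx3cr1, a marker of monocytes and macrophages, went from 2.08 ± 1.71 to 91.6 ± 26.9 CPM (SD, n = 4 each; edgeR adjusted p = 4.64e-05). Cx3cl1 was thus the only tested ligand of the monocyte class that did not pass, while its receptor had the largest log2 fold change of the 16 tested receptors, 5.35 ± 0.48.

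Neutrophil-attracting ligands were carried by 1 graft to a large extent. Cxcl6, listed in RefSeq with the synonym Cxcl5 and one of the ligands of Cxcr2, measured 0.225, 0.0996, 0.251 and 0.373 CPM in controls 1 to 4 against 3.94, 93.6, 11.5 and 5.91 CPM in grafts 1 to 4. Every graft lay above every control, but graft 2 was far above the other grafts. The log2 difference was 6.95 ± 1.33 (SE; edgeR adjusted p = 0.00268) with graft 2 and 4.93 without it (edgeR adjusted p = 0.000309). Cxcl1, a close relative also known as CINC-1 in rats, measured 2.02, 1.89, 2.43 and 2.24 CPM in the controls against 1.94, 16.8, 3.92 and 1.61 CPM in the grafts. Its groups overlapped, and the log2 fold change of 1.49 ± 0.71 was not past the threshold (edgeR adjusted p = 0.119) and was 0.21 without graft 2. Graft 2 also had the highest sum over 8 neutrophil markers, 85.1 CPM against 12.2 to 47.9 CPM in the other grafts and 4.58 to 17.7 CPM in the controls. Csf3r alone held 56.7 CPM of the sum in graft 2. Mpo, at 0 CPM in graft 2, held 17 CPM of the sum in control 4. Elane, Camp and Ngp, all rare, were highest in other grafts. Of those 8 markers 3 rose, 1, Mpo, fell and 4 were not tested, and none was at 0 in all libraries. The part of these markers in the Cxcl6 and Cxcl1 levels was not tested.

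Of the neutrophil ligands, 3 did not pass the filter. Cxcl3 had no counts in the controls and 1.33, 5.26, 0.48 and 3.27 CPM in grafts 1 to 4. That is 34.9-fold above what 3 counts over the control group would give, and 24.1-fold without graft 2. Cxcl2 had 3 counts in the controls and 0.303, 0.826, 0.32 and 0.963 CPM in the grafts, a ratio of 8.21 (95% counting interval 2.59 to 41.7). Both are Cxcr2 ligands of the same gene cluster as Cxcl1. Ppbp, the platelet basic protein from which a Cxcr2 ligand is cut, had 35, 2, 7 and 0 counts in controls 1 to 4, against 0, 0, 7 and 2 counts in grafts 1 to 4. The receptor Cxcr2 stood at 2.55 to 4.48 CPM in the controls and at 1.64, 18.1, 8.16 and 4.49 CPM in grafts 1 to 4, not past the threshold (log2 fold change 1.23 ± 0.61; edgeR adjusted p = 0.131) and again highest in graft 2. Its value was 0.46 without graft 2 (edgeR adjusted p = 0.494), and 1.59 and past the threshold without graft 1 (0.0255).

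The promoters of a pair of neutrophil ligands and a pair of lymphocyte ligands are shown because the members of each pair share a kappaB-like motif while differing in level. They run from 250 bases before to 50 bases after the start of the gene and come from RefSeq, build GRCr8, whereas the counts rest on Rnor_6.0. Capitals mark matches to the degenerate kappaB consensus, bound by the NF-kappaB family, and to the degenerate interferon-stimulated response element (ISRE), each searched on both strands, and kappaB-like matches can overlap each other.
Cxcl6, chr14:17596368-17596667, minus strand: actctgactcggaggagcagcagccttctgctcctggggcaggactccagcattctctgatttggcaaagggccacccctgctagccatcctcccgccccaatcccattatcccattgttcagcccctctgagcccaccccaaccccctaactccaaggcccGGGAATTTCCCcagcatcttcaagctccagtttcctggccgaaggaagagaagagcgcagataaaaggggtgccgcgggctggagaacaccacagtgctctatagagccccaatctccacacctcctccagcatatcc
Cxcl1, chr14:17479272-17479571, minus strand: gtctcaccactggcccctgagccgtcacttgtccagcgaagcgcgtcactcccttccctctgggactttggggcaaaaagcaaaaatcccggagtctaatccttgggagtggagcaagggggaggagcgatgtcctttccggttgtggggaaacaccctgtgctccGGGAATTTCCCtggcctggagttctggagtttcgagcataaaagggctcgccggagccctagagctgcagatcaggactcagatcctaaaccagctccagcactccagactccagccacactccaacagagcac
Cxcl10, chr14:15988816-15989115, plus strand: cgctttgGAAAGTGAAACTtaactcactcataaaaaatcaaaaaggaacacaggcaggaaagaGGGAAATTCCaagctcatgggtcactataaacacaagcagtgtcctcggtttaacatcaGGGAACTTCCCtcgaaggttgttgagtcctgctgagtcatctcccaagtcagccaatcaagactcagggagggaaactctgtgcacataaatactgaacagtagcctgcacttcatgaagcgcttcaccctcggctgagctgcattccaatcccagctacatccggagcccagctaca
Cxcl11, chr14:15973478-15973777, plus strand: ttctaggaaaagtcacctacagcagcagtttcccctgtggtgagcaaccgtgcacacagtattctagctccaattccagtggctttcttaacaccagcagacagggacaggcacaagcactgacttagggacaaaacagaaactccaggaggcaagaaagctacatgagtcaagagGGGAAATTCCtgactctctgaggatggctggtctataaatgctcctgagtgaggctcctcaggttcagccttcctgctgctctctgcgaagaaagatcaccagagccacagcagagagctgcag
Cxcl6 and Cxcl1 hold the same overlapping kappaB-like letters, GGGAATTTCC and GGAATTTCCC, the first of them beginning at position -88 in Cxcl6 and -84 in Cxcl1 from the start of the gene. Cxcl10 and Cxcl11 share GGGAAATTCC, and Cxcl10 alone of the 4 holds the ISRE-like GAAAGTGAAACT. A kappaB-like match was found in 8 of the 29 ligand promoters with a sequence (27.6%) and in 7.51% of all 33469 promoters of that length. They belong to Ccl7, Ccl9, Ccl20, Cxcl1, Cxcl2, Cxcl6, Cxcl10 and Cxcl11, of which Ccl7, Ccl9 and Cxcl6 rose, Cxcl1 and Cxcl10 were not past the threshold, and the others did not pass the low-count filter. Ccl6, Ccl12, Cxcl12, Cxcl13 and Cxcl16 rose without such a match. Ligands without a sequence were Ccl2, Ccl3, Ccl4 and Ccl5, which rose, and Ccl11, Cxcl3 and Pf4. The ISRE-like motif was in 2 of the 29 ligand promoters, Ccl19 and Cxcl10 (6.9%, against 1.01% of all). A TATAAA on the strand of the gene was in 10 (34.5%, against 8.8%), the AP-1 motif TGANTCA in 4 (13.8%, against 7.33%) and the C/EBP motif TTGCNNAA in 5 (17.2%, against 10.6%). These matches describe letters in the window and do not show that a factor binds there.

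Among lymphocyte-attracting ligands, Cxcl16 rose in all grafts. Cxcl16, a membrane-bound ligand of Cxcr6 that also takes up oxidised lipoprotein, measured 36.7, 72.4, 43.9 and 34.2 CPM in controls 1 to 4 against 98.1, 146, 176 and 119 CPM in grafts 1 to 4. The groups did not overlap, although control 2 reached 72.4 CPM, and the log2 fold change was 1.52 ± 0.27 (SE; edgeR adjusted p = 0.00162). Cxcr6 went from 0.48 ± 0.21 to 6.08 ± 2.89 CPM (SD, n = 4 each; edgeR adjusted p = 0.000328). Cxcl16 and Cxcr6 were both highest in graft 3.

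Cxcl9, Cxcl10 and Cxcl11 are induced by interferon gamma and draw T and NK cells through Cxcr3. Cxcl10 measured 1.05, 12, 2.84 and 0.373 CPM in controls 1 to 4 against 3.58, 8.86, 39.7 and 20 CPM in grafts 1 to 4. Control 2 lay above grafts 1 and 2, and the log2 fold change of 2.11 ± 0.94 was not past the threshold (SE; edgeR adjusted p = 0.0974). Without control 2 it was 3.55 and past it (edgeR adjusted p = 0.0169), and without graft 3 it was 1.41 (0.271). Cxcl9 measured 0.524, 3.88, 4.85 and 2.99 CPM in the controls against 3.58, 5.41, 7.68 and 7.9 CPM in the grafts, with overlap and a log2 fold change of 1.01 ± 0.54 (edgeR adjusted p = 0.16). Cxcl11 did not pass the filter, had no counts in the controls and stood at 0.667, 2.4, 8.4 and 3.21 CPM in grafts 1 to 4. That is 46.4-fold above 3 counts over the controls, and 50.5-fold without graft 2. The 3 genes lie next to each other in RefSeq's annotation, and grafts 3 and 4 held more of each of them than grafts 1 and 2. Cxcr3 went from 0.242 ± 0.221 to 6.54 ± 4.07 CPM (SD, n = 4 each; edgeR adjusted p = 0.000285) and was also highest in graft 3, at 12.6 CPM.

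**Figure D2:**
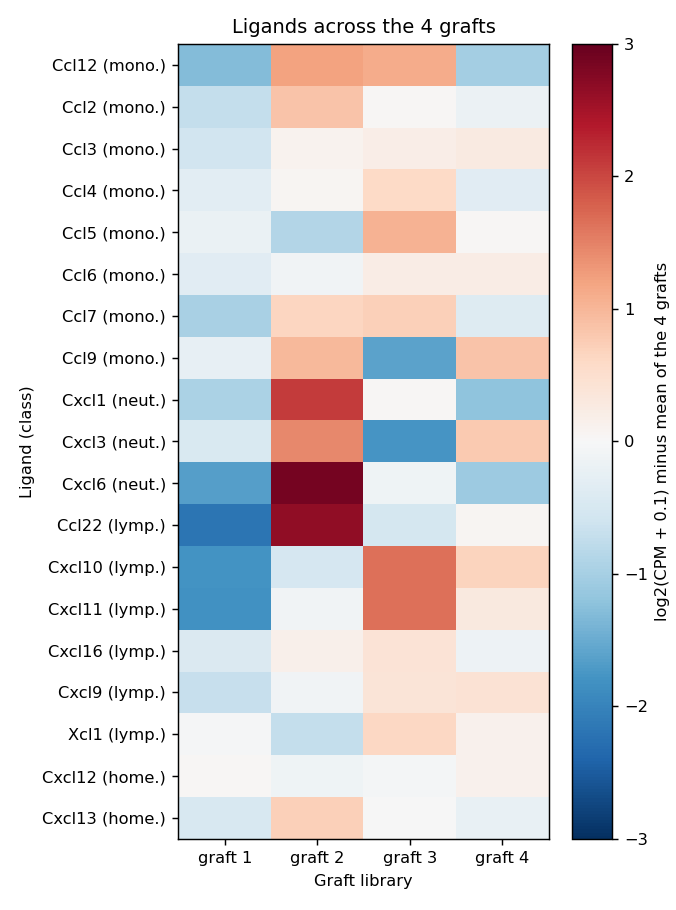
Differences among the 4 grafts for the 12 ligands that rose and for Cxcl1, Cxcl3, Cxcl9, Cxcl10, Cxcl11, Ccl22 and Xcl1. Colour gives log2(CPM + 0.1) minus the mean of the 4 grafts, red for above and blue for below it. Graft 2 is high for Cxcl1, Cxcl6 and Ccl22, graft 3 for Cxcl10, Cxcl11 and Ccl5, and Cxcl12 is nearly even.

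The other lymphocyte ligands were rare and did not pass the filter. Ccl22, a ligand of Ccr4 on regulatory and Th2 cells and a product of dendritic cells, had 3 counts in the controls and 0.485, 16.9, 1.76 and 2.7 CPM in grafts 1 to 4. The ratio of summed counts was 69.6 (95% counting interval 23.6 to 340), and 225 of its counts came from graft 2. Without graft 2, an alternative chosen after seeing the data, the ratio was 21.9 (95% counting interval 7.21 to 109). Ccl17, the other Ccr4 ligand and a direct neighbour of Cx3cl1, which lies between it and Ccl22, had 1 count in the controls and 0, 2.18, 0.32 and 0.642 CPM in the grafts. Graft 2 was thus the highest for both Ccr4 ligands. Xcl1, made by activated CD8 T and NK cells to reach Xcr1 on dendritic cells, had no control counts and 1.03, 0.601, 1.68 and 1.16 CPM in grafts 1 to 4. Its level was 15-fold above a floor of 3 counts over the controls, and 17.1-fold without graft 2. Ccl20, the ligand of Ccr6, had no control counts and 0, 8, 5 and 1 counts in grafts 1 to 4. It was 3.28-fold above that floor, and 1.83-fold without graft 2. Ccl1 had 4 counts in all, in grafts 2 and 3.

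Tested with no low-count filter, where 24983 genes entered, edgeR called 18 ligands higher. The 6 added were Cxcl11 (edgeR adjusted p = 0.00177), Xcl1 (0.00171), Cxcl3 (0.0025), Ccl22 (0.00439), Cxcl17 (0.026) and Ccl17 (0.036). Cxcl2 (0.0576), Ccl20 (0.09), Ppbp (0.177), Ccl1 (0.256) and Ccl28 (0.275) were not called, and Ccl25 and Ccl26 had no counts in any library. Without graft 2 and with no filter, Ccl17 (edgeR adjusted p = 0.141) and Cxcl17 (0.0574) were not called, while Ccl22 (0.00867), Cxcl3 (0.00433), Cxcl11 (0.0024) and Xcl1 (0.00257) were. DESeq2 called 19 higher, the 12 and these 6 with Cxcl2 added.

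Homeostatic ligands split in direction. Cxcl12, which holds Cxcr4-bearing progenitors and leukocytes in tissue, measured 350, 338, 299 and 337 CPM in controls 1 to 4 against 995, 887, 932 and 1050 CPM in grafts 1 to 4. Neither group varied much, and the log2 fold change of 1.55 ± 0.12 had the smallest standard error among the 23 tested ligands (SE; edgeR adjusted p = 3.41e-05). Cxcr4 went from 4.13 ± 1.28 to 32.9 ± 10.8 CPM (SD, n = 4 each; edgeR adjusted p = 8.84e-05), while Ackr3, the scavenging receptor of Cxcl12 that the count table lists as Cxcr7, fell from 196 ± 55.8 to 57.4 ± 10.4 CPM (edgeR adjusted p = 0.00021). Ligand and signalling receptor were thus higher and the scavenger lower in the grafts.

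Cxcl13, the B cell chemokine, measured 20.5, 54.4, 49.8 and 37 CPM in controls 1 to 4 against 67.7, 155, 94.8 and 81.7 CPM in grafts 1 to 4, for a log2 difference of 1.31 ± 0.33 (SE; edgeR adjusted p = 0.0115). The groups did not overlap, and graft 2 was the highest. With controls 3 and 4 left out, which had the most adipocyte transcripts, the value was 1.42 and not past the threshold (edgeR adjusted p = 0.0531). Its receptor Cxcr5 fell, from 7.35 ± 0.658 to 3.85 ± 1.71 CPM (SD, n = 4 each; log2 fold change -0.93; edgeR adjusted p = 0.0312). Of the fits with 1 library left out, Cxcr5 passed only without control 1 (edgeR adjusted p = 0.0316) or graft 3 (0.00401), and it missed the threshold without control 2 (0.0684), control 3 (0.0644), control 4 (0.0619), graft 1 (0.0748), graft 2 (0.0795) or graft 4 (0.0845), without controls 3 and 4 (0.127), and with library totals alone (0.123). Of 6 B and plasma cell markers 1, Jchain, rose, 2 were not past the threshold, 3 were not tested, and Cd79a had no counts.

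Ccl21 and Ccl19 guide dendritic cells and naive T cells through Ccr7. Ccl21, a product of lymphatic endothelium, measured 65.6, 72.7, 73.4 and 74.7 CPM in controls 1 to 4 against 95.9, 80.6, 54.9 and 106 CPM in grafts 1 to 4. The controls lay inside the range of the grafts, and the log2 fold change of 0.24 ± 0.18 was not past the threshold (SE; edgeR adjusted p = 0.332). It was past it without graft 3 (0.41; edgeR adjusted p = 0.0297) and with library totals alone (0.45; edgeR adjusted p = 0.0488). Over 5 lymphatic markers the sum was 217 to 299 CPM in the controls and 157 to 201 CPM in the grafts, with Flt4 and Pdpn higher and Prox1 lower. Ccl19 measured 7.04, 3.88, 1.09 and 3.17 CPM in the controls against 1.09, 2.03, 1.36 and 3.92 CPM in the grafts, with overlap (log2 difference -0.86 ± 0.57; edgeR adjusted p = 0.254). Ccr7 went from 0.698 ± 0.737 to 3.21 ± 1.26 CPM (SD, n = 4 each; edgeR adjusted p = 0.0311). It was not past the threshold without control 2 (edgeR adjusted p = 0.0813), control 3 (0.0763), graft 2 (0.0815), graft 3 (0.0637) or graft 4 (0.0543), without controls 3 and 4 (0.111), or with the title numbers as a replicate block (0.06), and its log2 fold change of 2.03 was 2.93 without control 1.

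The ligands that fell were Ccl27 and Cxcl14. Ccl27, a ligand of Ccr10 best known from skin keratinocytes, measured 3.37, 2.19, 1.51 and 0.933 CPM in controls 1 to 4 against 0.485, 0.601, 0.56 and 0.899 CPM in grafts 1 to 4. Control 4 and graft 4 were close, without overlap, and the log2 fold change was -1.67 ± 0.45 (SE; edgeR adjusted p = 0.0138). Cxcl14, an epithelial and stromal chemokine of resting tissue, measured 19.8, 31.6, 34.7 and 34 CPM in the controls against 9.22, 3.53, 18.2 and 15.5 CPM in the grafts, for a log2 difference of -1.36 ± 0.42 (edgeR adjusted p = 0.0273). Graft 3 reached nearly the level of control 1. The fall of Cxcl14 did not pass without control 2 (edgeR adjusted p = 0.0579), control 3 (0.0631), control 4 (0.0603) or graft 1 (0.0732), without controls 3 and 4 (0.15) or with library totals alone (0.0682). Over 5 adipocyte markers, all of which fell, the sum was 191, 339, 1270 and 1400 CPM in controls 1 to 4 and 0.376 to 4 CPM in the grafts. Among the controls, Cxcl14 was lowest in control 1, which also had the fewest adipocyte transcripts. Control 2, with the next fewest, held 31.6 CPM of Cxcl14, close to controls 3 and 4. The part of fat in the fall of Cxcl14 was not tested. Cxcl17, a mucosal chemokine, had no control counts and 2, 10, 12 and 2 counts in grafts 1 to 4. It was 6.1-fold above 3 counts over the controls, and 4.87-fold without graft 2. Ccl28 had 2 counts, both in control 3.

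The eosinophil ligands and Pf4 did not differ past the threshold. Ccl11, or eotaxin, measured 0.824, 1.89, 8.78 and 6.91 CPM in controls 1 to 4 against 2.37, 1.73, 7.04 and 4.11 CPM in grafts 1 to 4. Controls 3 and 4 were higher than controls 1 and 2, and the log2 difference of -0.25 ± 0.7 (SE; edgeR adjusted p = 0.793) was 1.5 with controls 3 and 4 left out (0.133) and 0.33 without control 3. Ccl24, a further Ccr3 ligand, measured 10.2, 13.8, 10.5 and 7.47 CPM in the controls against 4, 6.46, 4.88 and 11.3 CPM in the grafts (log2 fold change -0.66 ± 0.34; edgeR adjusted p = 0.142). Without graft 4 its value was -1.04 and past the threshold (edgeR adjusted p = 0.0208). Of 4 eosinophil markers, the granule genes Prg2 and Epx had no counts, and Ccr3, the receptor of these ligands, had 3 counts in all controls together and 3 in all grafts together and was not tested. Siglec5, the only one of the 4 tested, rose from 3.49 ± 1.36 to 15.3 ± 5.23 CPM (SD, n = 4 each; edgeR adjusted p = 0.00102) and made up nearly all of the list's sum, 2.24 to 5.19 CPM in control and 10.5 to 20.3 CPM in graft libraries.

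Pf4, platelet factor 4, turned on 1 control. It measured 140, 10.7, 5.02 and 8.59 CPM in controls 1 to 4 against 18.1, 19.6, 18.6 and 22.7 CPM in grafts 1 to 4. All grafts lay above controls 2, 3 and 4 and below control 1. The log2 fold change was -1.07 ± 0.91 with all libraries (SE; edgeR adjusted p = 0.371), and 1.29 and past the threshold without control 1 (edgeR adjusted p = 0.00343). Over 7 platelet and megakaryocyte markers the sum was 127 CPM in control 1, 14.3 to 18 CPM in the other controls and 11.9 to 38.6 CPM in the grafts. Of these 7, Gp9 was not tested, and none of the others was called with control 1 included. Among the grafts Pf4 varied little, while the sum of the platelet markers was highest in graft 3.

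**Figure D3:**
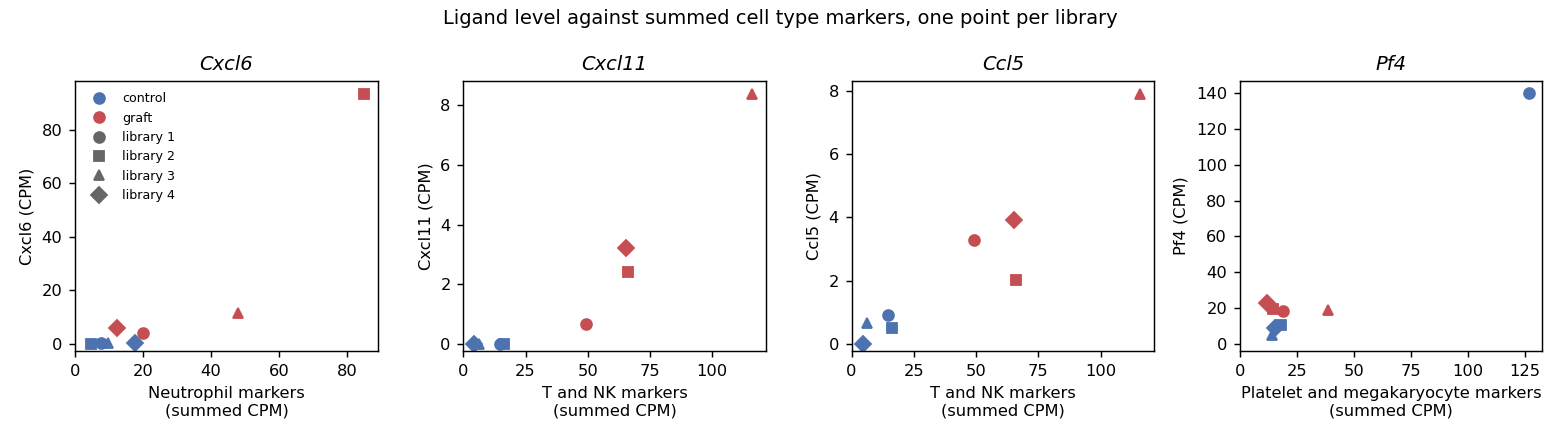
CPM of Cxcl6, Cxcl11, Ccl5 and Pf4 against the summed CPM of neutrophil, T and NK cell, and platelet and megakaryocyte markers. Each point is 1 library, blue for controls and red for grafts, with the shape giving the library number. Graft 2 is highest on both axes for Cxcl6, graft 3 for Cxcl11 and Ccl5, and control 1 for Pf4.

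Of the 22 chemokine receptors listed, 21 were in the table and 16 were tested: 9 rose, 4 fell and 3 were not past the threshold. Among all genes tested, 42.3% were called, 21.0% as higher and 21.3% as lower. Of the 16, 7 passed the filter through the grafts without passing in all 4 controls, and all 7 are among those that rose (Ccr6, Ccr7, Ccr9, Cxcr3, Cxcr6, Xcr1 and Cx3cr1). All 9 that rose are signalling receptors of leukocytes. Ccr1, which Ccl3, Ccl5, Ccl6 and Ccl9 reach in mice, rose by a log2 difference of 1.35 ± 0.44 (edgeR adjusted p = 0.0342), with overlap of the groups. It was not past the threshold without control 2 (edgeR adjusted p = 0.0701), graft 2 (0.0911), graft 3 (0.0531) or graft 4 (0.0767). Xcr1, Ccr6 and Ccr9 rose as well, by 2.71 ± 0.52, 2.12 ± 0.61 and 4.05 ± 0.94, while their ligands Xcl1, Ccl20 and Ccl25 did not pass the low-count filter. The groups overlapped for Ccr6 and not for Xcr1. Ccr6 was not past the threshold without control 3 (edgeR adjusted p = 0.0542), graft 3 (0.0541) or controls 3 and 4 (0.109), and without control 2 its value was 3.02. Over 5 dendritic cell markers, of which Xcr1 and Ccr7 are 2, the sum was 26.2 to 28.3 CPM in the controls. It was 92.2 CPM in graft 3, of which Flt3 held 45.8 CPM, and 50 to 59.9 CPM in the other grafts. Of the 5, 4 rose and none was at 0 in all libraries. The other, Zbtb46, measured 20.2 to 23 CPM in the controls and 15 to 19.2 CPM in the grafts. Its log2 fold change of -0.33 was not past the threshold. The part of these markers in the receptor levels was not tested.

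The receptors that fell were Cxcr5 and 3 atypical receptors, which bind ligands without G protein signalling and clear or move them. Ackr1, which carries inflammatory CC and CXC ligands across venular endothelium, measured 58.6, 65.7, 44.6 and 59.9 CPM in controls 1 to 4 against 18.4, 17.9, 31.3 and 23 CPM in grafts 1 to 4, for a log2 difference of -1.34 ± 0.2 (SE; edgeR adjusted p = 0.000773). Ackr4, the scavenger of Ccl19 and Ccl21, measured 64.4, 87.8, 57.6 and 47.2 CPM in the controls against 18.6, 11.9, 14.4 and 49.8 CPM in the grafts, for a log2 difference of -1.44 ± 0.43 (edgeR adjusted p = 0.0225). Graft 4 lay within the controls, and without it the value was -2.1. The fall of Ackr4 was not past the threshold without control 2 (edgeR adjusted p = 0.0648), graft 1 (0.0649), graft 2 (0.0503) or graft 3 (0.0627). Ackr2, the scavenger of inflammatory CC ligands, had a log2 fold change of -0.93 ± 0.42 and was not past the threshold (edgeR adjusted p = 0.102), but was without control 1 (-1.25; edgeR adjusted p = 0.000923). Over 6 endothelial markers the sum was 2880 to 4660 CPM in the controls and 1340 to 1660 CPM in the grafts. Vwf alone held 1320 to 3580 CPM in the controls and 393 to 649 CPM in the grafts. Of the 6, 3 fell (Vwf, Pecam1 and Tek) and none rose. Cdh5, Kdr and Tie1 were not past the threshold, with log2 fold changes of -0.23, -0.08 and -0.06. The part of these markers in the falls of Ackr1, Ackr3 and Ackr4 was not tested.

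**Figure D4:**
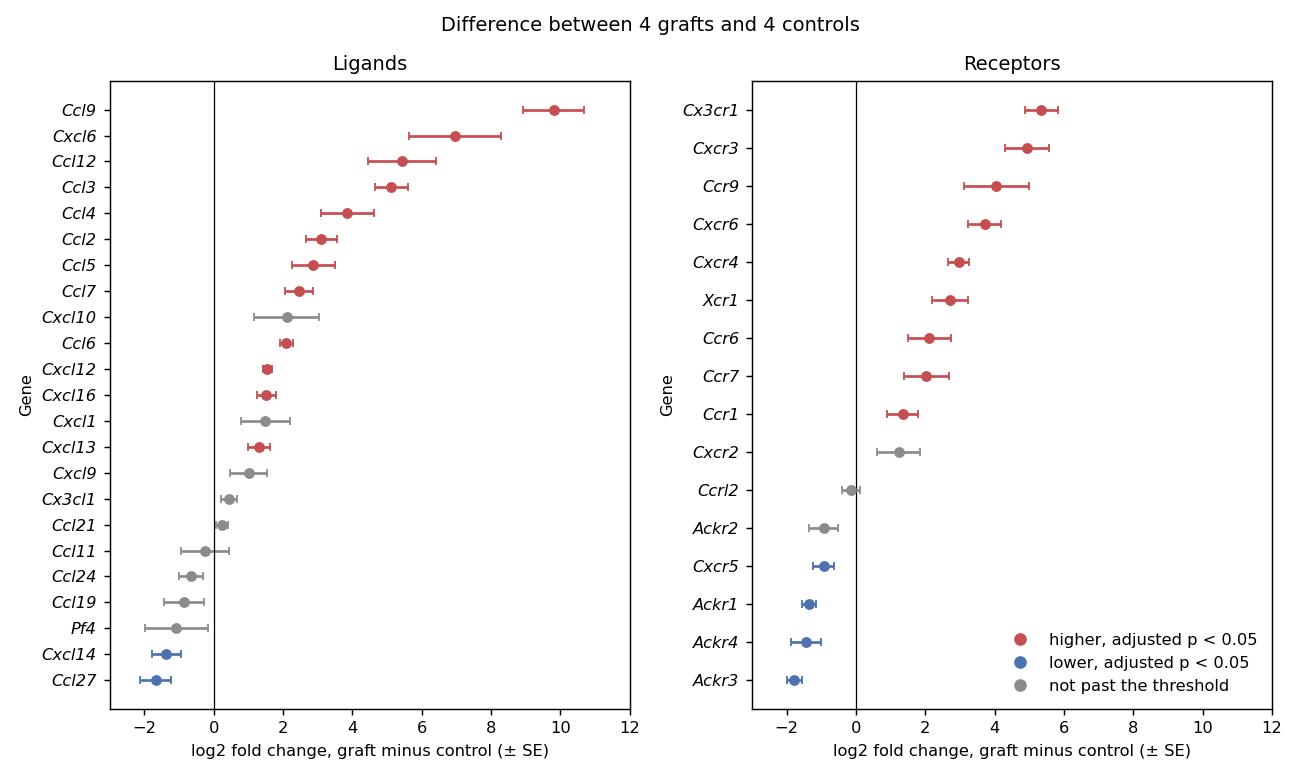
Log2 fold change, graft minus control, with its standard error, for the 23 tested ligands and the 16 tested receptors, ordered by size. Red marks genes higher and blue genes lower in the grafts at an adjusted p under 0.05, and grey those not past it. Fitted values of Ccl9 and Ccl12, with 3 control counts each, depend on the prior count of the fit. Ligands that rose number 12 and fell 2, receptors 9 and 4.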

How the data were processed

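The authors deposited whole-number read counts per gene for 8 libraries of total RNA, and the submitters' processing notes name HISAT2 2.0.4 and the build Rnor_6.0. Counter, annotation and strand setting: not given in the sources used here. Groups come from the sample titles. P-values measure the spread between these libraries, each pair of which differed by more than counting noise. Analyses used R 4.3.3 and edgeR 4.0.16: filterByExpr with a minimum count of 10, TMM factors, glmQLFit and glmQLFTest over all genes. Standard errors are the size of the fitted log2 difference divided by the root of the F statistic. CPM uses TMM-scaled library sizes. Floors and intervals cover counting error only. DESeq2 1.42.0 and 14 other settings were alternatives. On counts simulated with the common dispersion of the controls, the fit called 14% of 2-fold and 93.9% of 4-fold changes, and 2.75% of its calls were false. There, 100 of 14695 genes were changed 2-fold and 98 were changed 4-fold, whereas 42.3% of the genes tested were called in the data. The rates at so large a share, or with a dispersion of its own for each gene, were not tested. A gene not past the threshold may still have changed. Older symbols were matched through RefSeq synonyms, and 29 of 36 ligands had a promoter sequence. Classes follow known main target cells. Every tested ligand is named. Ligands, lists, motifs and rules were chosen with earlier results of these data known. The kappaB and ISRE consensus searches replaced looser patterns whose counts had been seen first. A receptor of the planned list is not reported here.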

Additional observations from a re-analysis of the deposited data

Results flagged for a closer look

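Of 46 groups of 4 libraries, 1 for each tested ligand and group, 5 had a library set apart from the other 3 by a gap that Dixon's test at 95% would mark, and chance marks about 1 in 20. Pf4 was at 140 CPM in control 1, against 5.02 to 10.7 CPM in the other controls. Cxcl6 was at 93.6 CPM in graft 2, against 3.94 to 11.5 CPM in the other grafts, and Cxcl1 at 16.8 CPM in graft 2, against 1.61 to 3.92 CPM. Ccl6 was at 13.4 CPM in control 3, against 9.15 to 9.86 CPM in the other controls, and Ccl7 at 2.85 CPM in control 1, against 1.69 to 1.87 CPM.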

How the results depend on the processing

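Over 15 alternatives, 14 of the 23 tested ligands kept their direction and side of the threshold in each fit that gave a value. Ligands called higher numbered 12 with all libraries, 19 with DESeq2, 14 with library totals alone, 18 without the low-count filter and 12 to 17 with 1 library left out. Ligands called lower numbered 2, and 1 with library totals alone, with controls 3 and 4 left out or with the replicate block, and 1 to 3 with 1 library left out (1 without control 2, control 3, control 4 or graft 1, and 3 without graft 4). Receptors called higher numbered 9, 8 with the replicate block or without controls 3 and 4, and 6 to 10 with 1 library left out (6 without graft 3). Receptors called lower numbered 4, and 2 to 5 with 1 library left out (2 without control 2, graft 1 or graft 2). With library totals alone the median over all genes was 0.23 in place of 0.01 on the log2 scale, and the share of calls that were higher was 67.8% in place of 49.7%. Direction turned for Ccl11 (0.33 without control 3, 1.5 without controls 3 and 4, and down to -0.71 with 1 library left out), Pf4 (1.29 without control 1, and down to -1.45) and Ccrl2 (0.09 with library totals alone, 0.08 without control 2, and down to -0.28), and the cause was not tested. The title numbers were used as a replicate block although in the source names grafts carry the numbers 9, 10, 3 and 5, and controls 1 to 4. Deviations of same-numbered libraries correlated at -0.07, 0.18, 0.07 and 0.05, and 1 of 4 controls correlated best with its own number, so the numbers do not show which graft belongs to which control. With the block, 12 ligands and 8 receptors were higher and 1 ligand lower, Ccl27 (-1.59; edgeR adjusted p = 0.0549) and Ccr7 (2.28; 0.06) were not past the threshold, Ccl11 stood at 0 and Pf4 at 0.43. Beside those given above with the genes, fitted values that moved over 1.5-fold without 1 library, calls kept, included those of Ccl12 (6.43 without control 2), Ccl9 (10.65 without control 1), Xcr1 (3.61 without control 3), Ccr9 (6.18 without control 2, 3.32 without graft 3) and Cx3cr1 (6 without control 3). At 3 counts per library, levels under 0.182 to 0.56 CPM could not be told from 0.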

Other observations

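Of 12 cytokines known to induce chemokines, 1 passed the low-count filter. Il1b, the inflammatory interleukin-1 beta, measured 2.17, 0.299, 1.84 and 0 CPM in controls 1 to 4 against 6.37, 23.3, 13.2 and 10.1 CPM in grafts 1 to 4, for a log2 difference of 3.45 ± 0.7 (SE; edgeR adjusted p = 0.00372). Il1b was highest in graft 2, as were 7 of the 23 tested ligands, Ccl2, Cxcl1 and Cxcl6 among them. Graft 3 was highest for 8 and graft 4 for 8, and a link of Il1b to ligand levels was not tested. Il1a had 2 control counts and a ratio of summed counts of 9.85 (95% counting interval 2.48 to 85.3), and Csf2, a growth factor of myeloid cells, with no counts in the controls, was 6.8-fold above 3 counts over that group. Tnf stood at a mean of 0.0467 CPM in control and 0.0376 CPM in graft libraries. Ifng, the inducer of Cxcl9, Cxcl10 and Cxcl11, had no control counts and a mean of 0.124 CPM in the grafts, under the level of 3 counts in a library. Il13 had no counts, and Il4, Il17a, Il17f, Lta, Ltb and Csf3 had none in the controls and means of 0.02 to 0.128 CPM in the grafts.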
